A study of Mus musculus with 14 samples.

Results

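Mice in which deletion of Cbx2 was induced with tamoxifen were set against oil controls, and 16806 genes of the 24984 in the count table were followed in their sorted spermatogonia. These are the genes with 10 or more counts in at least 2 of the 4 libraries of this experiment, out of 14 libraries in the series. Cells positive for c-KIT, the surface receptor that appears when spermatogonia leave the stem cell pool, were sorted by flow cytometry from testes of C57BL/6J mice, and their polyadenylated RNA was sequenced in bulk. The 2 deleted animals had the genotype Rosa26-CreERT2; Cbx2 Flox/Δ and 3 intraperitoneal injections of 200 µL of tamoxifen at 20 mg/mL in corn oil. The 2 controls had the genotype Rosa26-CreERT2; Cbx2 Flox/+ and 3 injections of 200 µL of corn oil alone. Every animal therefore carried the recombinase, no control received tamoxifen, and the deleted animals entered the experiment with 1 floxed and 1 already deleted copy. Genotype and drug differed together, so an effect of losing Cbx2, an effect of tamoxifen and an effect of active recombinase cannot be told apart. The recombinase is driven from Rosa26, a locus open in nearly every tissue, so recombination was not restricted to germ cells. The labels give neither the ages of the animals nor the time from injection to sorting.

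Cbx2 encodes a chromodomain subunit of the canonical form of Polycomb repressive complex 1 (PRC1). PRC2 places methyl groups on lysine 27 of histone H3, CBX proteins bind that mark, and canonical PRC1 compacts the chromatin of genes for development, the Hox genes among them, and keeps them silent. PRC1 also carries RING ligases that attach ubiquitin to histone H2A. In the male germ line, differentiating spermatogonia express Kit and, under retinoic acid, Stra8, divide several times and then enter meiosis.

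The 4 libraries held 28169990 to 31166500 counts and 19822 to 19976 genes with at least 1 count. Levels below are CPM (counts divided by a scaled library size) with TMM factors for the scaling, and differences are log2 fold changes of deleted over control with a standard error (SE) or 95% interval. A gene was called at an adjusted p under 0.05 in edgeR's two-sided quasi-likelihood test with Benjamini-Hochberg adjustment over the 16806 genes. Each library was taken as 1 animal, so the spread in the test is that of animals and of preparations at once. With 2 libraries a group, an ordering in which both deleted libraries lie above both controls, or below them, was common. It was found above in 15.6% and below in 17.5% of all genes, and these shares stand as the background for such counts below.

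Both markers of the labelled cells were abundant in all 4 libraries, but so were some transcripts of spermatids, described below. Prm1, for 1, stood above both markers, at 1018 and 1183 CPM in control replicates 1 and 2 and 897 and 1061 CPM in the deleted animals. How much of the RNA came from cells other than spermatogonia was not tested. Kit, the receptor used for the sort, stood at 203 and 259 CPM in the controls (replicates 1 and 2, in this order throughout) and at 214 and 271 CPM in the deleted animals. Stra8, the retinoic acid target that starts the meiotic program, stood at 566 and 507 CPM in the controls and 596 and 532 CPM in the deleted animals. The groups overlapped for both genes. The log2 fold change was 0.07 for each, with 95% intervals of -0.19 to 0.32 for Kit and -0.15 to 0.29 for Stra8, and both signs turned when 1 library was left out.

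Cbx2 itself was still transcribed in the animals labelled as deleted. Its level was 93.9 and 97.7 CPM in the controls and 78.5 and 86.5 CPM in the deleted animals. The deleted pair lay below both controls, by less than the distance at which the gene would be called. The log2 fold change was -0.21 (SE 0.12, 95% interval -0.45 to 0.02, edgeR adjusted p = 0.970). Written as a share, the fitted level was 86.2% of control with an interval of 73.1% to 102%. Leaving out 1 library at a time moved the log2 fold change between -0.29 and -0.14, and it did not pass in any of these fits. The counts cover the whole gene on chromosome 11 (119022962 to 119031270, plus strand, GRCm38), and the floxed exons are not named in the labels. The level does not show how much of the remaining transcript could make CBX2 protein.

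Across the transcriptome 2 of the 16806 genes (0.0119%) were called. 1 gene was higher (0.00595% of those tested) and 1 gene lower (0.00595%). An unadjusted p under 0.05 was found for 798 genes, 4.75% of those tested, where 840 would be expected with no difference at all. With the replicate number as a block in the edgeR fit, it was found for 1764 genes. The labels do not say that this number marks anything shared. The genes were split nearly evenly, 49.0% above 0 and 51.0% below. The SD of the log2 fold changes over genes of all levels was 0.30, and the 2 genes called lay far outside it. So did genes of low level that were not called, such as Bhmt (-2.38) and Col3a1 (2.22).

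**Figure D1:**
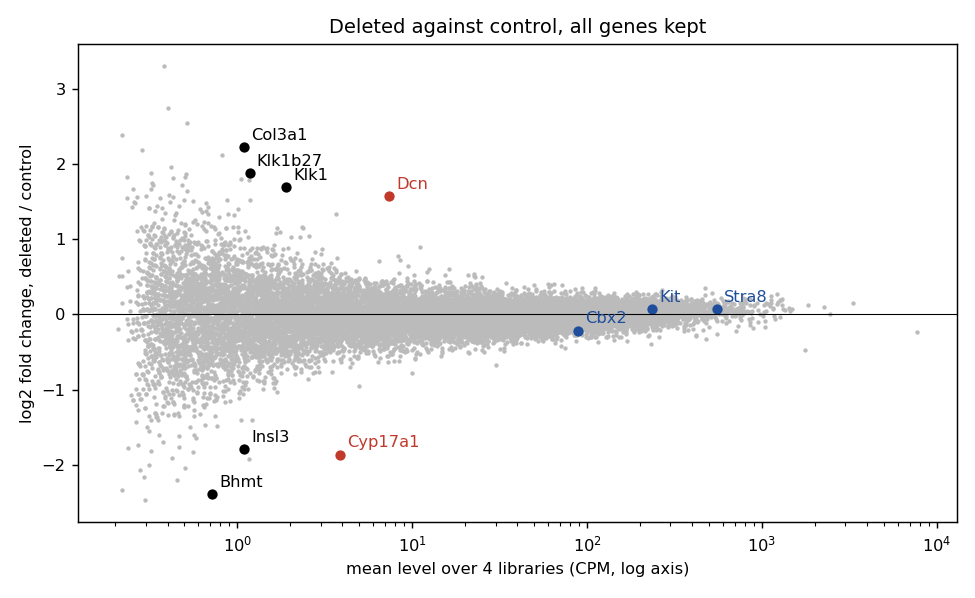
Log2 fold change of deleted over control (vertical axis) against the mean level over the 4 libraries in CPM (horizontal axis, log scale), 1 point for each of the 16806 genes. Red marks the 2 genes called, Dcn and Cyp17a1; blue marks Cbx2, Kit and Stra8; black marks a few of the next genes by p, none of which was called. The scatter widens toward low levels, where all of the red and black points lie.

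Cyp17a1 fell and Dcn rose, and both are known from somatic cells of the testis interstitium and not from spermatogonia. Cyp17a1 (chromosome 19, 46667165 to 46673172, minus strand, GRCm38) encodes the hydroxylase and lyase that Leydig cells use to make androgens. Its level was 7.37 and 4.77 CPM in the controls against 1.86 and 1.46 CPM in the deleted animals, which rest on 208, 150, 53 and 42 counts. Both controls lay well above both deleted libraries. The log2 fold change was -1.86 (SE 0.26, edgeR adjusted p = 0.00321). Dcn (chromosome 10, 97479609 to 97518143, plus strand, GRCm38) encodes decorin, a small proteoglycan that binds collagen fibrils. It stood at 4.57 and 2.89 CPM in the controls and at 14.97 and 7.11 CPM in the deleted animals, from 129, 91, 426 and 204 counts. The groups did not overlap, but deleted replicate 1 was more than 2 times as high as deleted replicate 2. The log2 fold change was 1.57 (SE 0.26, edgeR adjusted p = 0.0214). Dcn was no longer called without deleted replicate 1 (log2 fold change 0.94, edgeR adjusted p = 0.201), by DESeq2 (adjusted p = 1.00) or by limma-voom (adjusted p = 0.174). In a bulk sample, fewer cells of a type and less RNA per cell cannot be told apart, for these genes and for those of other cell types below.

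Among the next genes by p on the higher side, none was called with all 4 libraries. The 15 named by rule had edgeR adjusted p values of 0.314 or more. Without deleted replicate 2, 7 of the 15 were called (Adh1, Cd83, Cd86, Col3a1, Il1b, Klk1 and Sgk1), and 1 was called without each of the other libraries (Cd83 without control replicate 1, Klk1 without control replicate 2 and Cntfr without deleted replicate 1). They fell into a few kinds by what the genes are known to do. The collagen gene Col3a1 stood at 0.319 and 0.445 CPM in the controls against 2.56 and 1.05 CPM in the deleted animals, and the surface sialomucin Cd34 at 1.35 and 1.56 against 3.06 and 3.45 CPM. Both genes are known from stromal and vascular cells. Cd83 and Cd86, which antigen-presenting cells display, stood at 2.59 and 1.59 against 7.66 and 2.82 CPM, and at 0.461 and 0.159 against 1.69 and 0.976 CPM. The cytokine gene Il1b stood at 0.602 and 0.445 against 2.71 and 0.907 CPM. In these leukocyte genes deleted replicate 1 was the highest of the 4 libraries. The alcohol dehydrogenase Adh1 (log2 fold change 1.80, SE 0.44), the secreted protein Fgl2 (1.15, SE 0.29) and the regulator of G-protein signalling Rgs1 (1.52, SE 0.42) were also low in level, under 4 CPM in every library. Higher in level were Cntfr, the receptor for ciliary neurotrophic factor (6.80 and 5.50 against 9.03 and 11.96 CPM), and the kinase gene Sgk1 (13 and 12.7 against 21.8 and 17.3 CPM). Clic6, a chloride channel gene, stood at 19.2 and 17.7 against 24.0 and 29.8 CPM, and the X-linked kinase gene Map3k15 at 10.1 and 9.79 against 13.2 and 17.1 CPM. The zinc finger gene Zmat4 stood at 1.67 and 1.68 against 3.09 and 3.8 CPM.

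2 tissue kallikreins, secreted serine proteases of a family whose members lie side by side on chromosome 7, were among these genes. Klk1b27 had 0.461 and 0.540 CPM in the controls against 1.83 and 1.88 CPM in the deleted animals, and Klk1 had 0.461 and 1.30 against 3.41 and 2.41 CPM. Neither group overlapped the other, as the rule for naming required. The log2 fold changes were 1.88 (SE 0.40) and 1.70 (SE 0.37) with an edgeR adjusted p of 0.314 for both. Without 1 library the value of Klk1 lay between 1.17 and 2.65, and the gene was called without control replicate 2 (edgeR adjusted p = 0.000720) and without deleted replicate 2 (edgeR adjusted p = 0.0119). Their relative Klk1b21, named here after its values were seen, stood at 0.461 and 0.922 against 0.843 and 0.941 CPM, and its groups overlapped. The 250 bases before each gene's start are shown because these neighbours are near copies of each other, and the counting could have split reads that fit several of them. They are from RefSeq on GRCm38.p6, plus strand, at chr7:44225110-44225359 for Klk1, chr7:44052040-44052289 for Klk1b27 and chr7:44102042-44102291 for Klk1b21. Capitals mark the longest stretch that all 3 share.
Klk1: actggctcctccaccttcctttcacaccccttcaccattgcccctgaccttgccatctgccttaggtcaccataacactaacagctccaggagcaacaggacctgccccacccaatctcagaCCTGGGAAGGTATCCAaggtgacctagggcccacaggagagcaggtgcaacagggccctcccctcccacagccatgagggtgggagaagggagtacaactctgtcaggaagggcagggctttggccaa
Klk1b27: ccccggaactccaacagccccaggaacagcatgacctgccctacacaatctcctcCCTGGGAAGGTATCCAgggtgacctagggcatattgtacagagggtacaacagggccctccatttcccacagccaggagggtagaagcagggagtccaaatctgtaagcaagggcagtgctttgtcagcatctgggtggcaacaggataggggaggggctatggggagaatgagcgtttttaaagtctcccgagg
Klk1b21: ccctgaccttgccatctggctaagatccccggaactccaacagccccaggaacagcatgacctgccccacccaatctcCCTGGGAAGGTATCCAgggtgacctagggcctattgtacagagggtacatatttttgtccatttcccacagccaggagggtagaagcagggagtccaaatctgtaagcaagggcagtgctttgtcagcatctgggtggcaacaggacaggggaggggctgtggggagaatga
The shared stretch CCTGGGAAGGTATCCA has 16 bases and was found, on either strand, in 5 of 32851 promoter windows of the same length (0.0152%), all 5 of kallikrein genes. The 3 windows from which the stretch was taken are among these 5. Klk1b27 and Klk1b21 were identical at 93.0% of 228 aligned columns, Klk1 and Klk1b27 at 80.9% of 173, and Klk1 and Klk1b21 at 78.5% of 205. These identities are of sequence before the genes, which is not part of the counted transcripts. Of Cbx2, Kit, Stra8 and the genes named by p, 35 in all, 21 had an entry in this promoter table, and Cbx2, Cyp17a1 and Dcn were not among them.

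On the lower side, no gene after Cyp17a1 was called either with all 4 libraries. Of the 15 named by rule, Rn45s and Wdfy1 were called without control replicate 1, Wdfy1 without deleted replicate 1, and Erdr1 and Rn45s without deleted replicate 2. Bhmt, an enzyme that remakes methionine from homocysteine, stood at 1.13 and 1.27 CPM in the controls against 0.211 and 0.244 CPM in the deleted animals, from 32, 40, 6 and 7 counts. Angiotensinogen, Agt, stood at 6.59 and 6.58 against 3.65 and 3.17 CPM. Insl3, the peptide hormone of Leydig cells that drives testis descent, stood at 1.28 and 2.13 against 0.668 and 0.314 CPM. The iron-binding lipocalin Lcn2 stood at 1.67 and 1.88 against 0.738 and 0.593 CPM. Controls and deleted animals did not overlap in any of these, as the rule for naming required. For Wdfy1 the distance came mostly from 1 control, with 27.9 and 46.5 CPM in the controls against 24.3 and 22.4 CPM in the deleted animals. Further down stood genes known from late male germ cells, among them the actin-like gene Actl7b (80.6 and 80.9 against 57.0 and 64.2 CPM) and the testis profilin Pfn3 (11.7 and 13.3 against 7.24 and 9.27 CPM). The other named genes, Erdr1, Prr22, Tmem225, Tepp, Frat1, Krt88 and Prr27, had log2 fold changes between -0.78 (Erdr1) and -0.46 (Krt88). Their controls lay above both deleted libraries, as the same rule required. The ribosomal RNA precursor Rn45s stood at 1728 and 2396 CPM in the controls and 1284 and 1684 CPM in the deleted animals, which is 0.173% and 0.242% against 0.127% and 0.168% of all counts. Control replicate 1 and deleted replicate 2 nearly met.

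**Figure D2:**
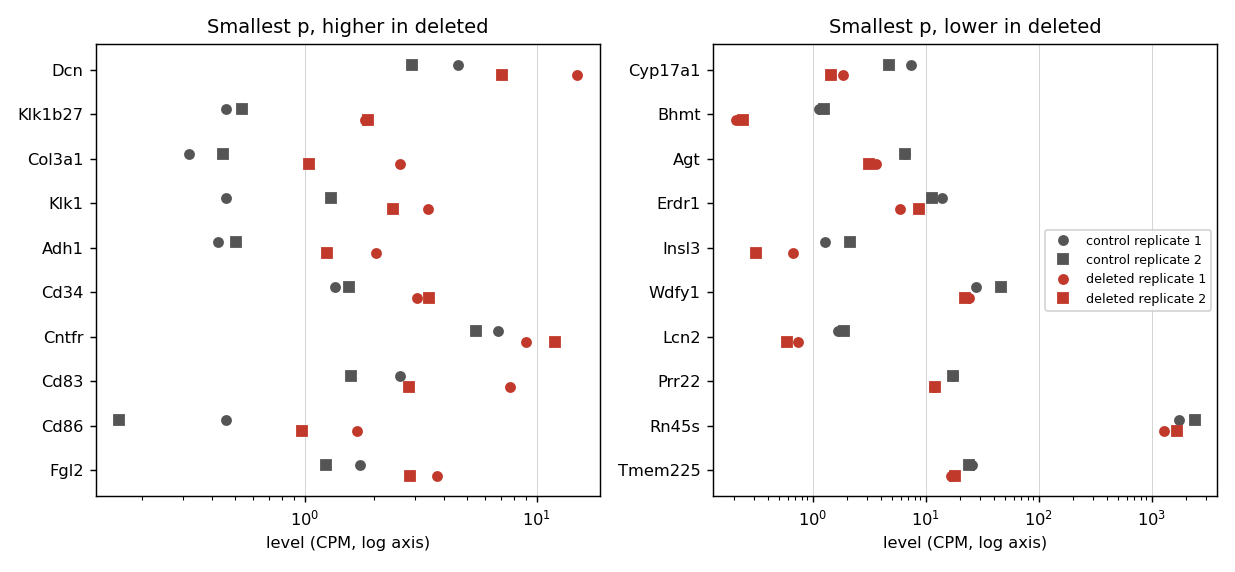
Levels in CPM (log scale) in each library for the 10 genes of smallest p above 0 (left) and below 0 (right) among those the rule for naming admits, predicted gene models left out, controls in grey and deleted animals in red, replicate 1 as circles and replicate 2 as squares. The groups are apart in every row, as the rule for naming required, and of these 20 genes only Dcn and Cyp17a1 were called. Deleted replicate 1 is the highest library for 7 of the 10 genes on the left, among them Dcn, Col3a1, Cd83 and Cd86.

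The other genes of Leydig cells and steroid synthesis had values of both signs. Of 21 genes kept of 23 on the list, Cyp17a1 alone was called. The other 20 had 10 above 0 and 10 below, and the median of all 21 log2 fold change was -0.06 (all genes -0.0045). Both deleted libraries lay above both controls in 4 of the 21 and below in 5. An unadjusted edgeR p under 0.05 was found for 2 on the higher side (2.06% over all genes). On the lower side it was found for 3, Cyp17a1 included (2.68% over all genes). Insl3, given above, lay nearly as far below 0 as Cyp17a1 (log2 fold change -1.79, SE 0.45, edgeR adjusted p = 0.490). Star, which brings cholesterol into the mitochondrion, stood at 4.96 and 4.83 CPM in the controls and 3.65 and 5.72 CPM in the deleted animals. Cyp11a1, which makes pregnenolone from it, stood at 5.10 and 2.70 against 3.13 and 3.21 CPM. The dehydrogenase Hsd3b1 stood at 3.33 and 2.73 against 2.56 and 2.13 CPM, but its relative Hsd3b6, the form known from adult Leydig cells, at 2.62 and 3.85 against 4.18 and 3.56 CPM. Hsd17b3, the last step to testosterone, was under 1 CPM in every library. Lhcgr, the receptor for luteinizing hormone, lay on the other side, at 0.213 and 0.477 CPM in the controls against 0.738 and 1.22 CPM in the deleted animals (log2 fold change 1.48, edgeR unadjusted p = 0.0103). The summed level of the list was 303 and 335 CPM in the controls and 301 and 309 CPM in the deleted animals. This sum and those of the lists below take in members that were not kept. The largest members of this sum were Por (81.4 and 107 against 84.0 and 95.7 CPM), Scarb1 (88.2 and 96.9 against 78.2 and 88.2 CPM) and Fdx1 (51.5 and 50.4 against 58.6 and 49.8 CPM). Scarb1 is a lipoprotein receptor that many cell types express. Cyp17a1 and Insl3 were a small part of the sum. The list's median had no steady sign: it lay between -0.03 and 0.06 when libraries were left out.

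Genes of the interstitial matrix lay on the side of Dcn more often than not. Of 37 kept of 42, 1 was called, 24 lay above 0 and 13 below, and the median was 0.15. Each deleted library lay above both controls in 10 of these 37 genes (15.6% over all genes) and below in none. Most of these were low in level, as with Pdgfra, the receptor that marks fibroblasts and interstitial progenitors (2.80 and 3.05 CPM against 4.64 and 4.22 CPM), and the keratan sulphate proteoglycan Lum (0.425 and 0.318 against 0.632 and 0.732 CPM). The elastic fibre gene Fbln5 stood at 5.99 and 7.82 against 8.26 and 8.995 CPM. The 2 chains of type I collagen, in contrast, overlapped: Col1a1 stood at 3.19 and 6.55 CPM in the controls and 4.67 and 5.23 CPM in the deleted animals, and Col1a2 at 0.461 and 1.05 against 0.914 and 1.36 CPM. The most abundant gene of the list, fibronectin (Fn1), stood at 66.3 and 94.8 against 55.9 and 82.6 CPM. The summed level was 251 and 315 CPM in the controls and 277 and 301 CPM in the deleted animals, so the controls spanned the deleted animals. The median stayed between 0.05 and 0.27 when each library was left out.

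Most leukocyte genes were higher in replicate 1 than in replicate 2 of both groups. Of 23 kept of 24, none was called, 18 lay above 0, both deleted libraries lay above both controls in none and below in 1, and the median was 0.32. The summed level was 214 and 199 CPM in the controls and 261 and 186 CPM in the deleted animals. Aif1, the gene that lay below, was much the largest member of this sum, at 115 and 122 CPM in the controls and 99.0 and 108 CPM in the deleted animals. The sum therefore does not stand for the list's members alike. Deleted replicate 1 was the highest of the 4 libraries for 17 of the 23 genes. The class II histocompatibility gene H2-Aa stood at 9.35 and 6.10 CPM in the controls and 21.2 and 7.60 CPM in the deleted animals, and Cd74, the chain that class II molecules need for assembly, at 17.1 and 16.9 against 34.0 and 15.03 CPM. Without deleted replicate 1 the log2 fold changes of H2-Aa, Cd74 and H2-Ab1 were -0.02, -0.18 and -0.10, and the list's median was -0.13. Without deleted replicate 2 it was 0.78. Replicate 1 was above replicate 2 for 21 of the 23 genes among controls and for 21 of the 23 among deleted animals. Csf1r, the growth factor receptor of macrophages, stood at 1.91 and 0.127 CPM in the controls and 0.843 and 0.105 CPM in the deleted animals, and Lyz2, their lysozyme, at 6.66 and 1.49 against 7.31 and 2.09 CPM; both were named after their values were seen. Dcn, Col3a1, Cd83, Cd86 and Il1b share the high value in deleted replicate 1, and the part that leukocytes or stromal cells in that library had in them was not tested.

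Markers of the other somatic cells that a testis sort could hold lay at low or middling levels in both groups. Sertoli genes (21 kept of 23, 12 above 0, none called) summed to 408 and 374 CPM in the controls and 439 and 391.8 CPM in the deleted animals, with the protease gene Ctsl alone at 192 and 169 against 213 and 190 CPM. The follicle-stimulating hormone receptor Fshr, which in the testis is confined to Sertoli cells, was under 1 CPM in every library. Endothelial genes (12 of 13, 7 above 0, none called) summed to 45.9 and 44.3 against 49.3 and 43.4 CPM, and peritubular myoid genes (12 of 13, 6 above 0, none called) to 91.5 and 97.3 against 84.7 and 95.2 CPM. The globin genes Hba-a1, Hba-a2, Hbb-bs and Hbb-bt were listed at 0 in all 4 libraries, and so were the mast cell gene Fcer1a and the Leydig gene Akr1c18.

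**Figure D3:**
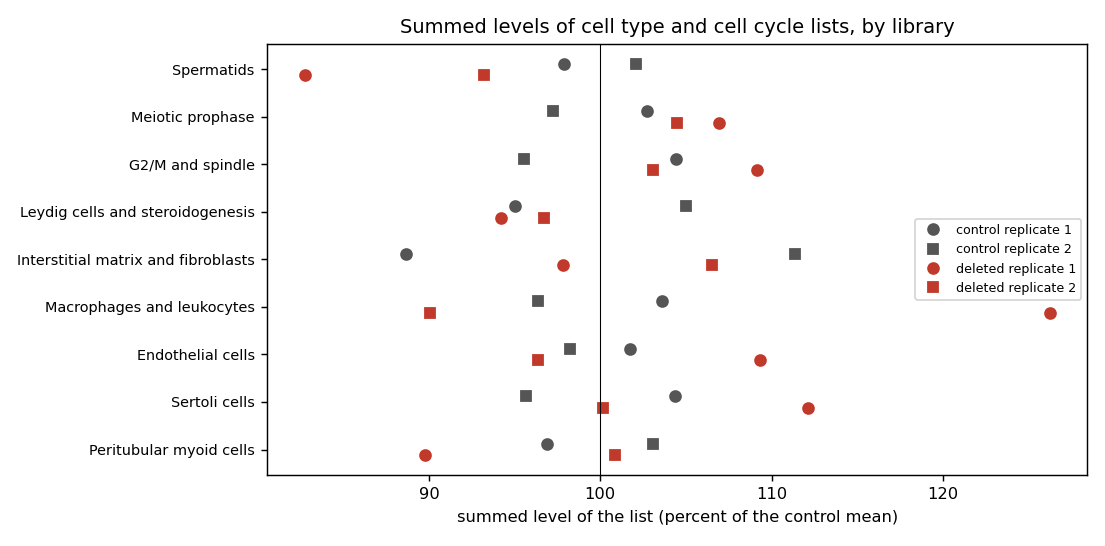
Summed level of 9 gene lists in each library, as a percent of the mean of the 2 controls (horizontal axis), controls in grey, deleted animals in red, replicate 1 as circles and replicate 2 as squares. Spermatid genes are below both controls in both deleted libraries, at 82.7% and 93.2%. The sum of macrophage and leukocyte genes is at 126% in deleted replicate 1 and 90.1% in deleted replicate 2, on opposite sides of the controls. Its largest member by far, Aif1, is below both controls in both deleted libraries.

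Within the germ line, transcripts of spermatids, the haploid cells after meiosis, lay mostly and slightly below 0. Of 39 genes, all kept, 37 lay below 0 and 2 above, none was called, and the median log2 fold change was -0.20. Both deleted libraries lay below both controls in 26 of the 39 (17.5% over all genes), and 9 had an unadjusted edgeR p under 0.05 on the lower side (2.68% over all genes). The list summed to 8492 and 8856 CPM in the controls and 7177 and 8085 CPM in the deleted animals. Prm1, a protamine that packs the sperm genome, stood at 1018 and 1183 CPM in the controls and 897 and 1061 CPM in the deleted animals, and its partner Prm2 at 748 and 774 against 614 and 696 CPM. Odf1 and Odf2 of the outer dense fibres of the tail stood at 25.6 and 32.6 against 17.8 and 24.1 CPM, and at 765 and 766 against 635 and 739 CPM. Tekt4, a filament protein of the flagellum, had 53.9 and 49.5 against 39.1 and 39.5 CPM. Deleted replicate 1 was the lowest of the 4 for most of these genes and for the sum. The median stayed below 0 with each library left out, from -0.27 to -0.12, the weakest being without deleted replicate 1.

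Most genes of meiotic prophase lay slightly above 0. Of 50 kept of 53 listed, 35 lay above 0 and 15 below, none was called, and the median was 0.08. The 2 deleted libraries lay above both controls in 18 of the 50 (15.6% over all genes) and below in 5. Spo11, which makes the DNA breaks of meiosis, stood at 46.6 and 51.8 CPM in the controls and 58.0 and 60.04 CPM in the deleted animals (log2 fold change 0.26, SE 0.12). The axis protein gene Sycp3 stood at 1083 and 1014 against 1305 and 1080 CPM, and the transverse filament gene Sycp1 at 1304 and 1278 against 1412 and 1305 CPM. For both of these genes of the synaptonemal complex, deleted replicate 2 stood level with control replicate 1. The member of smallest p lay the other way and was low in level: Hist1h1t, the testis form of linker histone H1, stood at 0.709 and 0.890 CPM in the controls and 0.422 and 0.139 CPM in the deleted animals (log2 fold change -1.50, SE 0.58, edgeR unadjusted p = 0.0154). The summed level was 11896 and 11263 CPM in the controls and 12380 and 12099 CPM in the deleted animals.

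Spermatogonial genes had small values of both signs. Of 26 genes of differentiating spermatogonia, 17 lay above 0, none was called and the median was 0.06. Dmrtb1, which acts in the switch from mitosis to meiosis, stood at 173 and 191 CPM in the controls and 148 and 156 CPM in the deleted animals (log2 fold change -0.26, 95% interval -0.48 to -0.04, edgeR unadjusted p = 0.0243). Sohlh2, a helix-loop-helix factor of early differentiation, stood at 138 and 136 against 160 and 158 CPM. Neither group overlapped the other in these 2 genes, and their directions were opposite. Dazl, an RNA-binding protein of germ cells, stood at 3342 and 2909 against 3596 and 3340 CPM. Of 34 genes of undifferentiated spermatogonia kept of 37, 19 lay above 0, none was called and the median was 0.03. Among them Upp1, uridine phosphorylase, stood at 8.57 and 6.32 against 13.2 and 9.94 CPM (log2 fold change 0.64, SE 0.19), and Bcl6b, a factor of stem cell self-renewal, at 3.44 and 4.58 against 3.23 and 2.68 CPM.

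Of the 4 lists of cell cycle genes, 2 had a median slightly above 0. For G2/M and spindle genes, 28 of 35 lay above 0, none was called, and the median was 0.07. Both deleted libraries lay above both controls in 9 of the 35 (15.6% over all genes) and below in 2. Bub1, a spindle checkpoint kinase, stood at 494 and 341 CPM in the controls and 524 and 541 CPM in the deleted animals, so control replicate 2 stood apart. Cyclin B1 (Ccnb1), which drives entry into mitosis, stood at 240 and 205 against 291 and 247 CPM, and topoisomerase Top2a at 753 and 690 against 761 and 755 CPM. For DNA replication genes, 31 of 47 lay above 0 and none was called (median 0.05). The polymerase subunit Pola1 stood at 20.8 and 17.2 against 28.4 and 25.2 CPM (log2 fold change 0.50, SE 0.15), and the helicase subunit Mcm6 at 510 and 485 against 546 and 514 CPM. The medians were 0.02 for G2/M and 0.01 for replication without deleted replicate 1. Of 20 cyclins, CDKs and related regulators of the step from G1 to S, 9 lay above 0 and 11 below, none was called, and the median was -0.0019. Cdk2, the kinase of that step, stood at 261 and 280.2 CPM in the controls and 286 and 275 CPM in the deleted animals, and the transcription factor gene E2f2 at 27.9 and 32.0 against 23.7 and 26.6 CPM.

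CDK inhibitors, which hold the cell cycle and include textbook Polycomb targets, had 2 of 8 above 0, none called and a median of -0.12. Cdkn2a, the target for which PRC1 loss is best known in other cells and which is named for that reason outside the rule, stood at 5.49 and 6.52 CPM in the controls and 5.62 and 6.49 CPM in the deleted animals. Its log2 fold change was 0.01 with a 95% interval of -0.40 to 0.42. Cdkn2c and Cdkn2d stood at 43.9 and 39.9 against 37.7 and 38.0 CPM, and at 47.7 and 47.4 against 45.5 and 40.3 CPM. Of p53 targets and DNA damage genes, which answer to broken DNA, 20 of 34 lay above 0 and none was called. Both deleted libraries lay above both controls in 11 of the 34 (15.6% over all genes) and below in 4, and the median was 0.04. Pmaip1, which encodes the death factor NOXA, stood at 14.4 and 11.1 CPM in the controls and 20.7 and 15.8 CPM in the deleted animals (log2 fold change 0.52, SE 0.17, edgeR unadjusted p = 0.00491). Mdm2, the ligase that p53 induces against itself, stood at 227 and 212 against 235 and 245 CPM.

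The subunits of PRC1 had no common direction. Of 15 core and canonical genes, Cbx2 itself included and all kept, 6 lay above 0 and 9 below, and none was called. The median was -0.10, with a sign that turned when deleted replicate 1 was left out (0.03). Their log2 fold changes ran from -0.32 to 1.14, none with an unadjusted edgeR p under 0.05. For 14 of the 15 the 95% interval lay within a 2-fold change either way. The paralog Cbx8, which can take the place of CBX2 in the complex and lies beside it on chromosome 11, stood at 30.4 and 27.4 CPM in the controls against 35.1 and 26.0 CPM. Cbx7 stood at 11.7 and 13.1 against 10.01 and 12.97 CPM, and Cbx6 at 2.76 and 5.02 against 3.06 and 4.25 CPM. The groups overlapped for each of these 3 paralogs. Their 95% intervals ran from -0.23 to 0.38 for Cbx8, from -0.46 to 0.24 for Cbx7 and from -0.64 to 0.45 for Cbx6. The ligase genes Rnf2 and Ring1 stood at 164 and 157 against 167 and 173 CPM, and at 25.1 and 28.5 against 22.2 and 23.2 CPM. Pcgf2, a finger protein of canonical PRC1, stood at 12.4 and 16.9 against 10.9 and 12.6 CPM, and its abundant relative Bmi1 at 222 and 203 against 223 and 222 CPM. Scml2, a germline partner of PRC1, stood at 554 and 494 against 559 and 567 CPM.

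Variant PRC1 (19 genes, 8 above 0, median -0.01) and PRC2 (12 genes, 6 above 0, median within 0.01 of 0) had no gene called. Phf19, an accessory subunit that guides PRC2, stood at 2.27 and 1.68 CPM in the controls and 0.949 and 1.32 CPM in the deleted animals (log2 fold change -0.79, SE 0.35, edgeR unadjusted p = 0.0314). Auts2, a partner of variant PRC1, stood at 57.6 and 68.3 against 50.2 and 57.1 CPM, and Pcgf5 at 413 and 402 against 462 and 420 CPM. Among 11 enzymes that undo Polycomb marks, 5 lay above 0 and none was called. The lysine 27 demethylase gene Kdm6b stood at 31.8 and 42.0 against 29.9 and 30.6 CPM, and Mysm1, which removes ubiquitin from H2A, at 145 and 129 against 152 and 149 CPM. Of 31 genes for trithorax-type methyltransferases and SWI/SNF remodellers, which oppose Polycomb, 12 lay above 0 and 19 below, and none was called. An unadjusted edgeR p under 0.05 was found for 6 of the 31 on the lower side (2.68% over all genes) and for none on the higher side. Setd1a stood at 37.6 and 48.2 against 28.7 and 36.6 CPM and Kmt2a at 62.9 and 85.8 against 49.1 and 65.0 CPM, and control replicate 2 was the highest library for both. Their list's median was -0.09, and 0.01 without deleted replicate 1.

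The Hox genes, which canonical PRC1 is known to keep silent, were low in both groups. Of 39 on the list, 19 had enough counts, 9 of these above 0 and 10 below, and none was called. The deleted pair lay above both controls in 4 and below in 5. Hoxb7 stood at 1.74 and 1.46 CPM in the controls and 2.49 and 2.89 CPM in the deleted animals (log2 fold change 0.75, edgeR unadjusted p = 0.0166), and Hoxc9 at 1.38 and 1.78 against 0.808 and 0.976 CPM (-0.83, unadjusted p = 0.0385), in opposite directions. The most abundant, Hoxd8 and Hoxa4, stood at 14.7 and 13.3 against 11.6 and 11.9 CPM, and at 10.8 and 10.7 against 9.10 and 10.4 CPM. The sum over all 39, kept or not, was 38.8 and 36.6 CPM in the controls and 35.6 and 37.2 CPM in the deleted animals. Precision was limited here, since the 95% interval lay within a 2-fold change either way for 2 of the 19, against 81.4% of all genes. Of 123 other transcription factors of development, 78 were kept, 37 of these above 0, none called, and both deleted libraries lay above both controls in 12 and below in 10. The most abundant of these were not low, with Tbx1 at 59.0 and 75.0 CPM in the controls and 59.4 and 60.9 CPM in the deleted animals, Sox11 at 32.9 and 32.9 against 33.3 and 33.3 CPM, and Pou4f1 at 27.4 and 38.4 against 26.1 and 34.4 CPM. Lhx8, a homeodomain factor also known from germ cells, stood at 21.2 and 20.5 CPM in the controls and 28.4 and 27.2 CPM in the deleted animals (log2 fold change 0.41, 95% interval 0.13 to 0.70, edgeR unadjusted p = 0.00654). Alx4, a limb and skull factor, stood at 0.815 and 0.953 against 0.316 and 0.244 CPM. Of 33 imprinted genes kept of 37, none was called, 14 lay above 0, and 4 had an unadjusted edgeR p under 0.05, each on the higher side (2.06% over all genes). Slc38a4, an amino acid transporter, stood at 1.59 and 1.08 CPM in the controls and 2.64 and 2.82 CPM in the deleted animals, the zinc finger gene Plagl1 at 2.44 and 1.88 against 4.74 and 3.14 CPM, and the adaptor Grb10 at 75.1 and 76.2 against 89.5 and 101 CPM. Morc1, a chromatin protein that silences retrotransposons in male germ cells, stood at 69.9 and 53.9 against 84.7 and 78.2 CPM (log2 fold change 0.40, SE 0.13).

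**Figure D4:**
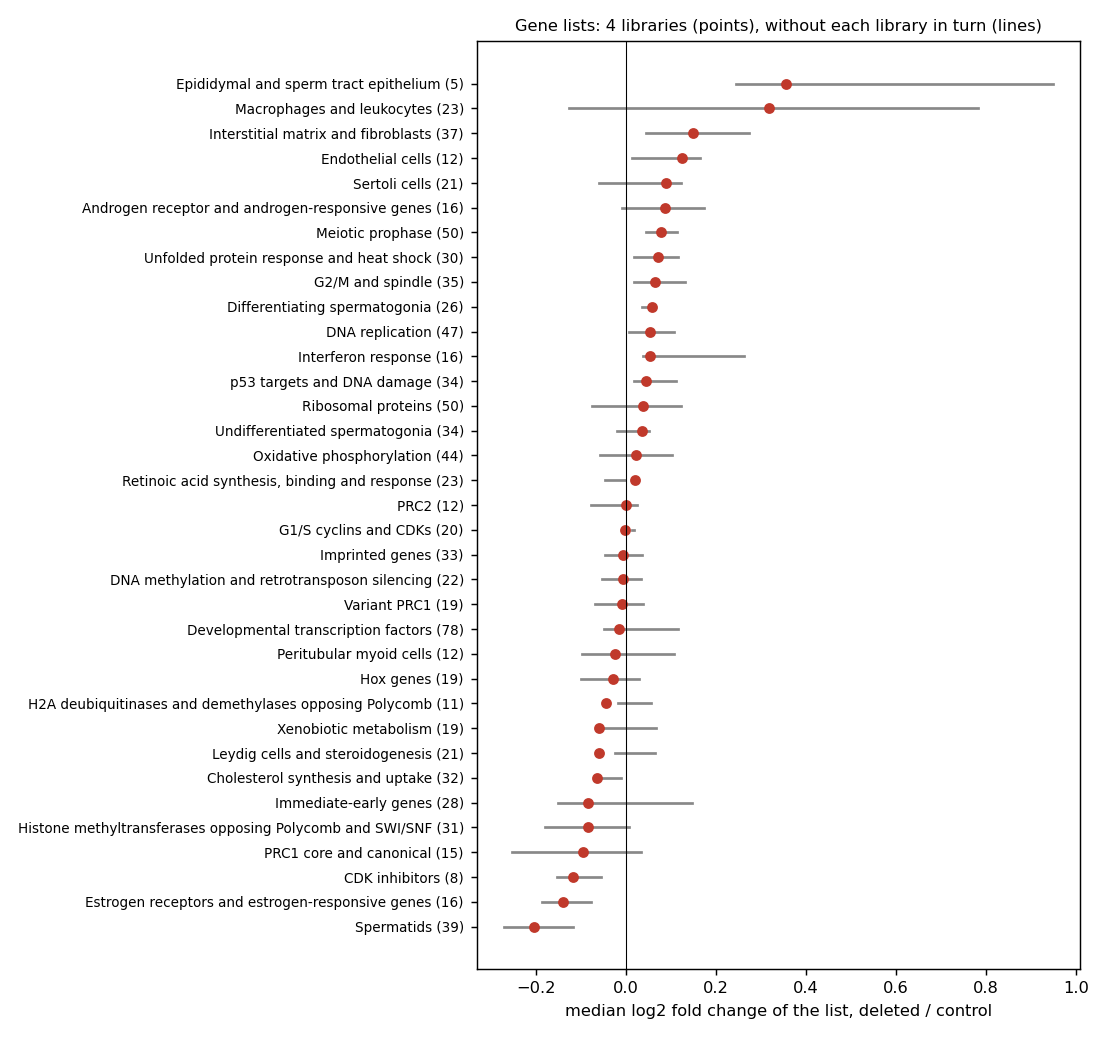
Median log2 fold change of deleted over control for each of the 35 gene lists with at least 5 genes kept (red points, number of genes in brackets), with the range when each of the 4 libraries is left out in turn (grey lines). A line need not cross its point. The line stays on the side of its point for 14 of the 35 lists, with spermatids lowest at -0.20, and it reaches the other side of 0 for 21.

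Genes that tamoxifen or hormone signals are known to act on were followed because only the deleted animals received the drug. Tamoxifen binds estrogen receptors, and it can also slow the late steps of cholesterol synthesis. Of 16 estrogen receptor and response genes kept of 24, 5 lay above 0 and 11 below, none was called, and the median was -0.14. Both deleted libraries lay above both controls in 2 of the 16 and below in 5 (17.5% over all genes). Igfbp4, a growth factor binding protein, stood at 16.6 and 19.7 CPM in the controls and 15.1 and 14.4 CPM in the deleted animals, and Igf1 lay the other way, at 1.28 and 1.05 against 2.42 and 1.57 CPM. Of 32 cholesterol genes, 10 lay above 0 and 22 below, and none was called (median -0.07). Both deleted libraries lay below both controls in 7 of the 32 (17.5% over all genes) and above in 1. Squalene epoxidase, Sqle, stood at 168 and 171 against 163 and 160 CPM. Of 16 androgen-responsive genes kept of 18, 9 lay above 0 and none was called. Both deleted libraries lay above both controls in 6 of these 16 (15.6% over all genes), among them Klk1 and Klk1b27, and below in 1. Of 19 genes of xenobiotic metabolism kept of 29, 9 lay above 0 and 10 below, none was called, and the median was -0.06. The member furthest below 0 was Ephx1, an epoxide hydrolase, which stood at 2.52 and 2.89 against 1.62 and 1.499 CPM (log2 fold change -0.80, SE 0.29).

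Other lists had no gene called either. Of 28 immediate-early genes, which cells switch on soon after a stimulus, 11 lay above 0 (median -0.09), and of 30 genes of the unfolded protein response and heat shock, 20 (median 0.07). Both deleted libraries lay above both controls in 7 of these 30 (15.6% over all genes) and below in 1. Of 23 retinoic acid genes kept of 24, 12 lay above 0 (median 0.02), of 16 interferon response genes kept of 22, 9 (median 0.05), and of 22 genes for DNA methylation and retrotransposon silencing kept of 23, 11 (median -0.0081). Ribosomal protein genes (50 kept of 51, 31 above 0) and oxidative phosphorylation genes (44, 27 above 0) had medians of 0.04 and 0.02. Few genes were kept for epididymal and sperm tract epithelium (5 of 12, 3 above 0), mast cells (2 of 9) and erythroid cells (1 of 8).

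The neighbourhood of Cbx2 was described because the floxed and deleted alleles lie there. The 13 genes kept that start within 500 kb of Cbx2, itself included, had 3 values above 0 and 10 below, and none was called. Both deleted libraries lay below both controls in 4 of the 13 (17.5% over all genes), Cbx2 among them, and above in none. Sgsh, a lysosomal sulfamidase, stood at 1.38 and 1.84 CPM in the controls and 0.914 and 1.05 CPM in the deleted animals. Tbc1d16 stood at 4.43 and 4.96 against 4.43 and 3.03 CPM. Its place among the 4 rests on a near tie of control replicate 1 (4.428 CPM, 125 counts) and deleted replicate 1 (4.427 CPM, 126 counts). Rnf213, a large ubiquitin ligase, stood at 10.6 and 8.45 against 8.29 and 6.90 CPM. The abundant neighbours overlapped, with the lysosomal glucosidase Gaa at 160 and 240 against 154 and 187 CPM and the exon junction factor Eif4a3 at 304 and 337 against 311 and 296 CPM. Without Cbx2 the median of the other 12 was -0.09, and 0.0014 without control replicate 2.

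**Figure D5:**
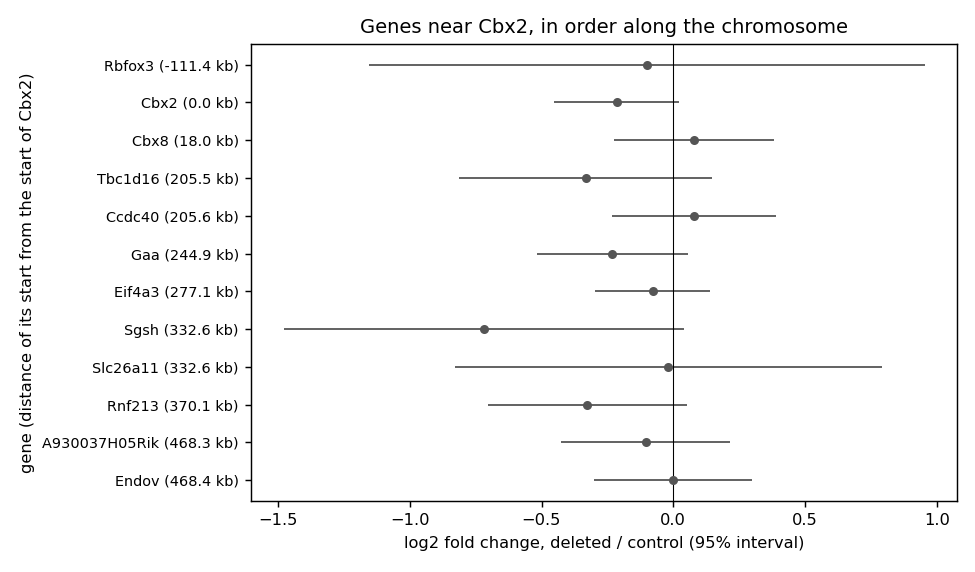
Log2 fold change of deleted over control with its 95% interval (horizontal axis) for 12 of the 13 genes kept within 500 kb of Cbx2, in their order along the chromosome, with the distance of each start from that of Cbx2 in kb beside its name. 9 of the 12 points lie below 0, and the interval of each includes 0.

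By chromosome, the median log2 fold change of autosomes ran from -0.04 (chromosome 7) to 0.03 (chromosome 13). The X chromosome lay above this range. Of its 697 genes, 59.7% were above 0 (49.0% of all genes), and the median was 0.05. Both deleted libraries lay above both controls in 159 of the 697 (15.6% over all genes) and below in 82 (17.5%). The X median stayed between 0.02 and 0.09 with each library left out. The X chromosome was singled out after its value was seen, and no test was made of it.

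How large a difference each gene could hide was read from its 95% interval. For 63.7% of the 16806 genes the whole interval lay within a 1.5-fold change either way, and for 81.4% within a 2-fold change. Level decided this: of 3067 genes at 100 CPM or more, 99.8% lay within 1.5-fold, and of 6823 genes at 10 to 100 CPM, 94.0%. Of 4669 genes at 1 to 10 CPM, where both called genes lay, 26.2% lay within 1.5-fold and 80.0% within 2-fold, and of 2247 genes under 1 CPM, 2.76% lay within 2-fold. These intervals take each gene on its own and are not adjusted over genes. The libraries themselves differed within groups by sizes like those between groups: the median absolute log2 difference per gene was 0.14 between the controls and 0.17 between the deleted animals. Of the 6 pairs of libraries, control replicate 2 and deleted replicate 1 were farthest apart (0.20) and control replicate 1 and deleted replicate 2 closest (0.13).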

How the data were processed

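Raw reads per gene symbol are the deposited counts. Per the submitters' processing notes, the authors used featureCounts, Subread 1.5.0, SAMtools 1.4.1, STAR 2.5.3 and Trim Galore 0.4.3 with the mm10 build. The RNA was amplified with a SMART-Seq mRNA kit, per the labels' protocols. Neither annotation, strand setting nor the handling of reads that fit several genes was stated, so overlapping, antisense and near-identical genes may share counts. The 10 libraries of the other experiment came from another kit and were not used here. Amplified reads are not independent molecules, and counting error covers the spread in part only.

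From the counts, R 4.3.3 with edgeR 4.0.16 kept genes with 10 or more counts in at least 2 libraries, scaled by TMM and ran the quasi-likelihood test on the 4 libraries with no covariate. The SE is the log2 fold change divided by the square root of F, and intervals use 25.7 degrees of freedom, of which 2 are residual. The script was tested on simulated data first. DESeq2 1.42.0 and limma-voom (limma 3.58.1), other filters and scalings, a replicate block and leaving out each library were alternatives. Positions are from GENCODE on GRCm38 (16604 of 16806 genes matched) and promoters from RefSeq, read with Python 3.11.15 and aligned with Biopython 1.88.

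The genes followed and the 37 gene lists were chosen with earlier results of these data known, and no list was tested. Named were Cbx2, Kit, Stra8, called genes, up to 15 uncalled genes of smallest p in each direction (at least 1 CPM on average in the higher group, groups apart, no predicted model), per list the 3 of highest level and 2 of smallest p, any Leydig, matrix or CBX member, and genes within 500 kb of Cbx2. Members that this rule takes are given in part only, and some are not reported here.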

Additional observations from a re-analysis of the deposited data

How the results depend on the processing

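The test called 1 gene higher and 1 lower. With no filter it called 5 and 3, and with a filter at a mean of 5 CPM, which takes out Cyp17a1, 1 and 0 (310 lower at an unadjusted p under 0.05). DESeq2, limma-voom and robust estimation of the prior spread called 0 genes higher, with 186, 356 and 351 at an unadjusted p under 0.05. Cyp17a1 was called in each of the other settings run, and the calls by filterByExpr, DESeq2 size factors and upper quartile scaling were 1 and 1. Leaving out 1 library gave 1 to 15 genes higher and 1 to 17 lower, most without deleted replicate 2. Of these 32 calls, 5 were on the leukocyte list. With the replicate number as a block, 800 genes on the higher side and 964 on the lower had an unadjusted edgeR p under 0.05. The fit with the block called 33 genes higher and 29 lower. Among them were 36 genes named in the text that the test without the block did not call (20 higher, 16 lower), with 14 of the 15 uncalled genes of smallest p on the higher side, Klk1, Cd83 and Col3a1 included, and 13 of the 15 on the lower side. With no filter, Cd83, Col3a1, Klk1, Klk1b27 and Rn45s were called. The labels do not say that a number marks anything shared, and the difference of replicate 1 minus replicate 2 correlated between the groups at r = 0.41 across 9890 genes of at least 10 CPM, which are not independent replicates. Scaling moved the median of all genes by under 0.01. Of the genes named with a fold change, these changed sign when 1 library was left out, with a range in log2 of -0.11 to 0.25 for Kit, -0.0076 to 0.17 for Stra8, -0.035 to 0.95 for Klk1b21, -0.45 to 0.40 for Cbx6, -0.31 to 0.067 for Cbx7, -0.15 to 0.28 for Cbx8, -0.69 to 0.24 for Cyp11a1, -0.42 to 0.23 for Star, -0.39 to 0.63 for Col1a1, -0.53 to 0.062 for Fn1, -0.016 to 1.46 for H2-Aa, -0.18 to 1.00 for Cd74, -0.10 to 0.64 for H2-Ab1, -0.48 to 0.091 for Gaa, -0.10 to 0.14 for Cdkn2a, -3.21 to 1.87 for Csf1r, -0.94 to 1.66 for Lyz2, -0.31 to 0.029 for Tbx1 and -0.34 to 0.14 for Pou4f1. The cause was not tested. Where a group kept 1 library, that library was assumed to vary like the other group. Under 1 CPM, the 95% interval reached beyond a 2-fold change for most genes.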
